A study of Homo sapiens with 18 samples.

Results

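The enzymes that build, remodel and break down glycerophospholipids, the main lipids of cell membranes, were examined in osteosarcoma cells grown in 5 kinds of environment. The genes were chosen by annotation only: the rows whose KEGG pathway entry named glycerophospholipid metabolism and did not also name the lysosome. This gave 96 of the 50119 genes listed, and 1 gene of the pathway, PLA2G15, was left out because it also carried the lysosome entry. All 18 libraries came from Saos-2 (spelled Soas-2 in the labels), a human osteosarcoma line of wild-type genotype, with 3 libraries in each of 6 groups. D-2 was flat 2D culture, D-3 was cells mixed into Matrigel, and DP-3 was 3D cell-printed tissue in a bioink of methacrylated gelatin and alginate. These were taken at day 14, and DP-3 was also taken at day 1. FIT was fresh tumor, grown for 14 days under the skin of female BALB/c nude mice after injection of the cells in Matrigel and never cultured. IT was pieces of such tumors kept on Matrigel for 14 days. In the study's methods each tumor was split between culture and fresh use, so an IT and a FIT library may come from the same animal, and their comparison treats them as independent though they may not be. The cultured groups shared DMEM-F12 medium with fetal bovine serum. FIT and IT can hold mouse cells, the mice are not tied to libraries, and nothing in the labels says that the 3 libraries of a group came from separate cultures or animals. The p-values therefore measure the spread between libraries, which may be technical.

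Glycerophospholipids are made from glycerol-3-phosphate. Acyltransferases add fatty acids to give phosphatidate, which is either dephosphorylated to diacylglycerol, the base of phosphatidylcholine and phosphatidylethanolamine, or activated as CDP-diacylglycerol for phosphatidylinositol, phosphatidylglycerol and cardiolipin. Finished lipids are then remodelled: a phospholipase A2 removes a fatty acid and a lysophospholipid acyltransferase puts back another, while phospholipase D cuts off the head group. Some of the products, such as arachidonic acid, lysophosphatidate and diacylglycerol, are signals in their own right.

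Library totals ranged from 50327345 to 79082786 estimated counts in 17 libraries and were lowest, 23721666, in FIT replicate 3. The same library had the highest summed FPKM (fragments per kilobase of transcript and per number of mapped fragments) of 9 skeletal muscle markers, 5.47, against 0.68 to 1.33 in the other FIT libraries and at most 0.58 in any cultured library. The number of genes at an FPKM of at least 0.1 ran from 17716 to 18109 in D-2 and from 24694 to 24791 in DP-3 at day 1, with the other groups between. Of the osteoblast and osteosarcoma markers, COL1A1 and RUNX2 were present in every library. ALPL, IBSP and SP7, which define the osteoblast lineage, were at or near 0, with highest values of 0.15, 0.08 and 0.09 FPKM over the 18 libraries. Summed FPKM of 6 endothelial markers was 4.21 to 6.52 in IT and 3.90 to 6.08 in FIT, against 1.06 to 2.36 in the cultured cells. For 5 fibroblast markers it was 10.5 to 18.4 in IT and 17.5 to 29.2 in FIT, against 6.03 to 15.1. Most of this was PDGFRA, at 4.78 to 28.3 FPKM over the 18 libraries, and DCN was at most 0.09. The markers were split in direction. PDGFRA and DPT were lower than FIT in flat culture, Matrigel and day-14 printed tissue. LUM was higher there (0.73, 1.23 and 1.72 in log2), as was COL14A1 (2.13, 2.16 and 1.74). Neither LUM nor COL14A1 was called, with edgeR adjusted p of 0.0859 or higher. The sum of 6 macrophage markers was 48.2 to 70.1 in IT and 24.7 to 61.7 in FIT, against 47.4 to 119.7 in the cultured cells. That sum mostly followed CD68, at 18.6 to 115.1 FPKM over the 18 libraries and also high in cells cultured alone. ADGRE1 was at 2.97 to 5.48 and CSF1R at 0.61 to 2.35. CD14, ITGAM and MRC1 were at most 0.25, 0.25 and 0.12 in any library. The sum therefore gives no measure of macrophages. COL1A1, the main bone collagen, was lower than in FIT in flat culture, Matrigel and printed tissue (-2.12, -2.87 and -2.16 on the log2 scale, edgeR adjusted p = 0.000808, 0.000273 and 0.00379). KRT5 and KRT14, keratins of skin, were at 0.64 to 2.04 and 0.12 to 10.4 FPKM in FIT and at most 0.21 in those cultures. FABP4, a fat-cell marker, was listed at 0 in FIT and was at 0.12 to 8.53 FPKM in the same cultures. Of the other skin markers listed, KRT1 and DSG3 were at most 0.07 and 0.08 FPKM in any library. KRT10 was at 16.2 to 30.2 over the 18 libraries and was not called against FIT. The other fat-cell markers listed, ADIPOQ, LEP, CIDEA, CIDEC and PLIN1, were at most 0.53 in any library. The part of the marker differences above in the comparisons with FIT was not tested. In bulk libraries fewer cells of a type and less RNA per cell cannot be told apart.

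Most steps of the pathway were expressed everywhere. Mean FPKM was at least 1 in every group for 59 of the 96 genes, at least 10 in every group for 10, and below 0.1 in every group for 17. The number at 1 FPKM or more was 64 in FIT, 66 in IT, 64 in D-2 and 67 in D-3, and in DP-3 it was 69 at day 1 and 64 at day 14. Detection differed by step. All 8 genes listed as remodelling acyltransferases and 10 of 11 listed as acyltransferases of the synthetic route reached 1 FPKM in a group. Only 5 of 21 phospholipases A2 and B did. Secreted phospholipases A2 such as PLA2G2A, PLA2G5 and PLA2G10 stayed below 0.1 FPKM in every group. In all, 76 genes had 0.1 FPKM or more in at least 3 of the 6 libraries of some comparison and were tested, 72 of them in all 6 comparisons. The other 20 were not tested, and 12 of these were phospholipases A2.

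A differentially expressed gene (DEG) was one with an adjusted p below 0.05 in edgeR's quasi-likelihood test and at least a 2-fold change. Compared with FIT, D-2 had 7 upregulated and 8 downregulated members of 72 tested, with 3.83% and 10.8% of all tested genes called in those directions. The upregulated genes were PLA2G4A, DGKI, LPCAT1, PLPP4, CHPT1, LPCAT2 and MBOAT7. The downregulated genes were PNPLA7, LCAT, GPCPD1, CHKB, LPCAT4, PLA2G6, LPIN3 and JMJD7-PLA2G4B. PNPLA7 stayed below 0.1 FPKM in D-2 and passed the expression filter only through FIT, so that it had to differ. MBOAT7 and PNPLA7, like PLA2G4C, PLA2G2D, PLB1, PNPLA6, CHKA, CEPT1, PLD2, TAZ and PLA2G4B elsewhere in the text, were named after their values were seen. So were LPGAT1 and LCLAT1. Leaving out D-2 replicate 1 cut the total of 15 to 8, and leaving out D-2 replicate 2 cut it to 9.

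D-3 had 6 upregulated and 0 downregulated members of 75 against FIT, with 4.29% and 2.17% of all genes called. These were PLA2G4A, PLA2G4C, DGKI, GPD1L, CHPT1 and MBOAT1. DESeq2 called 1 member lower in D-3. At an unadjusted p below 0.05, 26 of the 75 members and 5402 of all 21676 genes tested differed. Of the 26 members, 14 were higher. The count of 6 fell to 1 without D-3 replicate 1 or 3 and to 2 without FIT replicate 1 or 2.

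DP-3 at day 14 had 3 upregulated members (DGKI, LPIN1 and GPAM) and 2 downregulated members (GPCPD1 and CHKB) of 72, with 1.66% and 3.16% of all genes called. This comparison rested heavily on single libraries. The total of 5 became 11 without FIT replicate 3. It was 0 when DP-3 replicate 1 or FIT replicate 1 was left out, and 1 when the library dropped was replicate 2 of either group or replicate 3 of DP-3.

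IT had 0 DEGs among the 74 members tested and 0.0% over all genes against FIT by edgeR, where the smallest adjusted p of any gene was 0.0902. At an unadjusted p below 0.05, 20 of the 74 members and 2693 of all 21183 genes tested differed. Of the 20 members, 16 were higher in IT. DESeq2 called 4 members, PLD1, LPIN1 and PLA2G4B as higher and LCAT as lower. FPKM of IT lay wholly above FIT for 17 members and wholly below for 7, which is 23.0% and 9.46% of the members against 11.1% and 9.49% of all genes.

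Within the cultures, DP-3 at day 14 against day 1 had 0 upregulated and 4 downregulated members of 73 (PLA2G4C, PLA2G6, DGKQ and GPCPD1), with 1.81% and 5.76% of all genes called. At an unadjusted p below 0.05, 25 of the 73 members and 7446 of all 20774 genes tested differed. Of the 25 members, 8 were higher at day 14. PLA2G4C passed the filter only through day 1 and had to differ. DESeq2 also gave 0 upregulated members. D-3 against D-2 had 11 upregulated and 4 downregulated members of 75, with 14.6% and 3.95% of all genes called. Of the 11, PLA2G4C, PLA2G2D and PNPLA7 passed the filter only through D-3 and had to differ. Without D-3 replicate 1, the count for D-3 against D-2 was 9. The median log2 fold change over the members tested lay between -0.07 and 0.14 in the 6 comparisons, and that over all genes between -0.09 and 0.11.

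**Figure D1:**
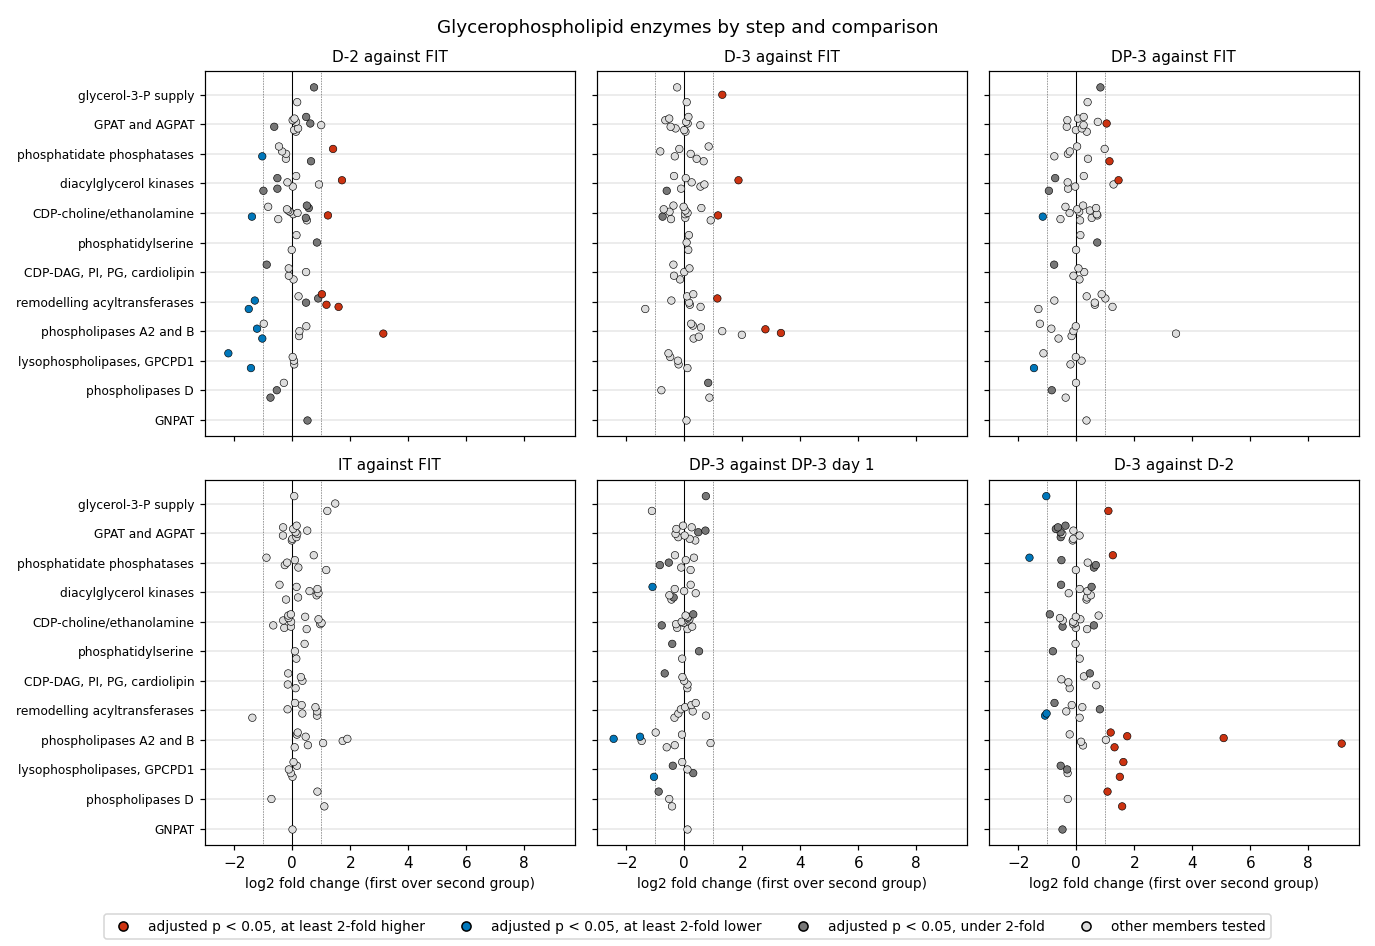
Each panel is 1 comparison, each point 1 member tested, placed by log2 fold change of the first group over the second (x axis) and by step of the pathway (rows); dotted lines mark 2-fold. Called members in D-2 and D-3 against FIT spread over several steps, IT has none, and 3 of the 11 called as higher in D-3 against D-2 passed the expression filter only through D-3; the point beyond 8 there is PLA2G2D, at 0 in D-2, whose fitted fold change is no estimate of size.

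The early acyltransferases had similar summed levels in the 6 groups. Summed FPKM of the 11 acyltransferases listed for this part of the route was 93.8 ± 2.74 (SD, n = 3) in FIT and between 94.5 and 105.1 in the other groups' means. Gene by gene, 5 of the 10 tested were lower in D-3 than D-2 at an edgeR adjusted p below 0.05, all under 2-fold. Among the 5 were LPGAT1 and LCLAT1, which are named as acyltransferases of lysophosphatidylglycerol and lysocardiolipin. Both could also be counted as remodelling enzymes, so the 5 are not all of the early route. At that limit 0 were higher, and the median log2 fold change of the 10 was -0.43. Of all 20231 genes tested, 3300 were lower and 3881 higher at the same limit. AGPAT1, which adds the second fatty acid and had the highest level of the step, had group means from 22.3 to 26.6 FPKM, and the adjusted p was 0.242 or higher in the 6 comparisons. GPAM, the mitochondrial enzyme that adds the first fatty acid, was at 3.87, 3.74 and 3.18 FPKM in DP-3 and 2.22, 1.87 and 1.61 in FIT. The groups did not overlap, and the log2 fold change was 1.04 ± 0.16 (SE, adjusted p = 0.0165). That is close to the fold limit, and GPAM stayed a DEG in 1 of 6 fits with a library left out, the one without DP-3 replicate 3.

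GPD2 and GPD1L, which both interconvert glycerol-3-phosphate and dihydroxyacetone phosphate, went opposite ways in Matrigel. GPD2, the mitochondrial dehydrogenase, was at 7.93, 9.06 and 8.39 FPKM in D-3 and at 14.3, 15.1 and 14.4 in D-2. The log2 fold change was -1.04 ± 0.10 (SE, adjusted p = 0.00155), and without D-3 replicate 1 or 3 it was not called, coming as close to 0 as -0.95. GPD1L, a cytosolic dehydrogenase, was at 4.44, 8.68 and 5.02 FPKM in D-3 against 2.19, 2.25 and 2.64 in D-2 and 2.18, 2.75 and 2.04 in FIT. Every D-3 library lay above both groups. The rise over D-2 was 1.11 ± 0.26 (SE, adjusted p = 0.0171), and was not called without D-2 replicate 1, D-2 replicate 2 or D-3 replicate 2. The rise over FIT, 1.31 ± 0.30 (SE, adjusted p = 0.0365), was lost with any 1 library left out, with adjusted p from 0.0583 to 0.104. GPD1L also varied widely within IT and DP-3 at day 1, where its range was 2.80 to 12.4 and 2.64 to 9.81 FPKM.

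Phosphatidate phosphatases, which turn phosphatidate into diacylglycerol, differed gene by gene. Of 7 tested, PLPP4 was higher and LPIN3 lower in D-2 than FIT, LPIN1 was higher in DP-3 than FIT, and PLPP5 was higher and PLPP4 lower in D-3 than D-2. PLPP4 had 2.02, 1.98 and 2.05 FPKM in D-2, 0.66, 0.92 and 0.75 in D-3, and 0.93, 0.68 and 0.94 in FIT. D-2 stood above both other groups without overlap. On the log2 scale it differed by 1.41 ± 0.21 against FIT (SE, adjusted p = 0.00418) and -1.62 ± 0.21 for D-3 against D-2 (SE, adjusted p = 0.0027), and both calls held in 6 of 6 fits with a library left out.

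LPIN1 and LPIN3 encode lipins, which also act in fat storage. LPIN1 was at 5.03, 5.80 and 6.05 FPKM in DP-3, 7.95, 7.53 and 3.31 in IT and 2.48, 3.22 and 2.60 in FIT, so neither group overlapped FIT. The change in DP-3 was 1.14 ± 0.18 (SE, adjusted p = 0.0164), kept without FIT replicate 2 or 3 and not called without any 1 of the other 4 libraries, where adjusted p reached 0.067. In IT it was 1.17 ± 0.33, with an adjusted p of 0.239 in edgeR and 0.0281 in DESeq2. LPIN3 was at 1.10, 1.59 and 1.78 FPKM in D-2 against 3.58, 3.36 and 3.30 in FIT (log2 fold change -1.04 ± 0.21, adjusted p = 0.0113), and without D-2 replicate 1 the change was -0.86, under the fold limit. PLPP5 rose from 1.57, 2.58 and 2.50 FPKM in D-2 to 5.999, 8.01 and 5.01 in D-3 (1.26 ± 0.25, adjusted p = 0.00996). PLPP3, the most abundant of the step, had group means of 8.26 to 14.8 FPKM and was a DEG in none of the 6 comparisons, although the D-3 to D-2 difference of -0.51 ± 0.13 had an adjusted p of 0.0196 in edgeR.

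Diacylglycerol kinases run the reaction the other way. DGKI, which turns the signal diacylglycerol into phosphatidate, was the 1 member called in DP-3, D-3 and D-2 alike when set against FIT, though those 3 comparisons share the FIT libraries. It was at 0.48, 0.28 and 0.47 FPKM in FIT. DP-3 had 0.98, 1.41 and 0.74, D-3 had 1.34, 2.10 and 1.25, and D-2 had 1.01, 1.24 and 1.39. Every library of those cultures was above every FIT library, and so were the IT libraries at 0.70 to 0.78. The differences from FIT in D-2, in Matrigel and in printed tissue were 1.71 ± 0.24, 1.87 ± 0.30 and 1.46 ± 0.29 on the log2 scale (SE), with adjusted p of 0.0037, 0.0118 and 0.0299. The calls in D-2 and D-3 held in 6 of 6 fits with a library left out, and the call in DP-3 held only without FIT replicate 3, with adjusted p up to 0.091. DGKQ fell from 5.69, 5.47 and 6.06 FPKM at day 1 to 2.37, 2.46 and 1.88 at day 14 in DP-3, a log2 fold change of -1.10 ± 0.12 (SE, adjusted p = 0.00258) called in 6 of 6 such fits. DGKZ, the highest of the step, ranged between group means of 6.04 and 9.33 FPKM without a DEG call.

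In D-2, CHKB of the first step of the choline route was below FIT and CHPT1 of its last step was above it. CHKA and CEPT1, which act at the same steps, did not follow them. CHKB, a choline and ethanolamine kinase, had its lowest mean in flat culture, with 1.94, 2.86 and 2.84 FPKM in D-2, 4.88, 4.46 and 4.55 in D-3, 6.20, 6.34 and 6.47 in DP-3 at day 1, 3.73, 3.48 and 2.03 in DP-3 at day 14, 5.03, 4.68 and 4.46 in IT and 8.14, 7.25 and 7.04 in FIT. All 15 other libraries lay below FIT. Relative to FIT, the log2 difference was -1.39 ± 0.19 in D-2 (SE, adjusted p = 0.0037), called in 6 of 6 fits with a library left out. It was -1.16 ± 0.23 in DP-3 (SE, adjusted p = 0.0306), called only without FIT replicate 3. In D-3 it was -0.75 ± 0.18 (adjusted p = 0.0425), under the fold limit. CHKB overlaps the readthrough gene CHKB-CPT1B on the same strand, so that its counts may be shared with it. CHKA, the paralogous kinase, had group means of 5.25 to 7.17 FPKM and no DEG call. In D-2 it was above FIT by 0.47 ± 0.14 (SE, adjusted p = 0.0392), under the fold limit.

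CHPT1, which joins CDP-choline to diacylglycerol, was instead lowest in FIT, at 2.80, 3.31 and 2.99 FPKM. It had 7.10, 6.39 and 5.75 in D-2, 8.17, 5.69 and 7.44 in D-3, and 6.24, 5.37 and 6.17 in IT. None of these overlapped FIT. Log2 fold changes were 1.23 ± 0.14 in D-2 (SE, adjusted p = 0.00238) and 1.16 ± 0.20 in D-3 (SE, adjusted p = 0.0144). The D-2 call held in 6 of 6 fits with a library left out, and the D-3 call was lost without D-3 replicate 1, D-3 replicate 3 or FIT replicate 1, with adjusted p up to 0.075. In IT the change of 0.96 ± 0.17 had an adjusted p of 0.16. CEPT1, another enzyme of this last step, was not called in D-2 against FIT (-0.49 ± 0.39, SE, adjusted p = 0.376). PEMT methylates phosphatidylethanolamine to phosphatidylcholine, which is not a step from CHKB to CHPT1, but was counted among the 16 genes listed here. It was the highest of the 16, at group means of 8.65 to 14.1 FPKM, and was called in no comparison.

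The phosphatidylserine genes and the branch to phosphatidylinositol, phosphatidylglycerol and cardiolipin gave 0 DEGs in the 6 comparisons by edgeR, DESeq2 or limma. Of their 49 tests in edgeR, 14 had an unadjusted p below 0.05 and 9 an adjusted p below 0.05, all under 2-fold. PTDSS1, which exchanges choline for serine, had 24.4, 23.8 and 20.9 FPKM in D-2 and 13.7, 15.4 and 13.5 in FIT. The D-2 change of 0.85 ± 0.11 (SE, adjusted p = 0.00355) stayed below 2-fold. TAZ, the tafazzin that remodels cardiolipin, was at 1.81, 1.99 and 1.79 FPKM in D-2, 2.20, 1.98 and 2.01 in DP-3 and 3.89, 3.25 and 4.38 in FIT. Both cultures lay below FIT, by -0.88 ± 0.14 (SE, adjusted p = 0.00572) and -0.77 ± 0.17 (SE, adjusted p = 0.0376) on the log2 scale, and DP-3 at day 14 was below day 1 by -0.68 ± 0.12 (adjusted p = 0.00888). CDIPT, the phosphatidylinositol synthase, had group means of 15.3 to 18.3 FPKM with adjusted p of 0.359 or higher throughout. GNPAT, the peroxisomal enzyme that starts plasmalogen synthesis and the 1 member outside the steps above, ranged from 10.2 to 13.8 FPKM without a DEG call.

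Of the 8 genes listed as remodelling acyltransferases, 3 were upregulated (LPCAT1, LPCAT2 and MBOAT7) and 2 downregulated (LPCAT4 and LCAT) in D-2 against FIT. There 3.83% and 10.8% of all genes were called. LCAT was counted in this list although it passes a fatty acid from phosphatidylcholine to cholesterol and does not re-acylate a lysolipid. LPCAT1, on chromosome 5 at 1456480 to 1523962 of the minus strand, re-acylates lysophosphatidylcholine and makes the saturated phosphatidylcholine of lung surfactant. It was at 54.6, 53.2 and 47.1 FPKM in D-2, 27.9, 30.0 and 29.5 in D-3, 30.3, 28.6 and 30.3 in DP-3 at day 1, 26.8, 50.8 and 46.5 in DP-3 at day 14, 30.8, 39.6 and 32.1 in IT and 19.4, 11.03 and 27.2 in FIT. D-2 did not overlap D-3 or FIT, while DP-3 at day 14 spread from below the IT libraries into the D-2 range. The change was 1.59 ± 0.28 for D-2 against FIT (SE, adjusted p = 0.00728) and -1.08 ± 0.10 for D-3 against D-2 (SE, adjusted p = 0.00152), both called in 6 of 6 fits with a library left out.

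LPCAT4, on chromosome 15 at 34358633 to 34367196 of the minus strand, acts on lysophosphatidylethanolamine and other lysolipids and was lower in D-2 than FIT. It was at 12.1, 13.7 and 15.8 FPKM in D-2 but 50.7, 40.5 and 22.1 in FIT, 39.8, 29.7 and 31.6 in IT, and 33.6, 21.4 and 31.9 in D-3. Printed tissue had 25.9, 26.3 and 27.8 at day 1 and 18.1, 18.8 and 24.1 at day 14. D-2 lay below all of these. Against FIT, the log2 fold change in D-2 was -1.29 ± 0.29 (SE, adjusted p = 0.015). It was -1.60 without FIT replicate 3, the lowest FIT library for this gene, and was not called without D-2 replicate 1 or 2, with adjusted p up to 0.0583. For D-3 against D-2 the value was 0.81 ± 0.19 (adjusted p = 0.0163), under the fold limit.

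The start regions of LPCAT1 and LPCAT4 are shown because these genes of one step differed in opposite directions between D-2 and FIT. Each is the 250 bases before the RefSeq start in GRCh38.p14, read 5′ to 3′ on the gene's strand, and capitals mark the GC box GGGCGG on either strand.
LPCAT1, chr5:1523961-1524210: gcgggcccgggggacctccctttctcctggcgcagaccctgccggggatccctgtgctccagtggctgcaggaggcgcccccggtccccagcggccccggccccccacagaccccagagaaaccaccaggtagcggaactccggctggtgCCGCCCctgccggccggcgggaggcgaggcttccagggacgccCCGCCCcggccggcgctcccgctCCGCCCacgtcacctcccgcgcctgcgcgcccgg
LPCAT4, chr15:34367197-34367446: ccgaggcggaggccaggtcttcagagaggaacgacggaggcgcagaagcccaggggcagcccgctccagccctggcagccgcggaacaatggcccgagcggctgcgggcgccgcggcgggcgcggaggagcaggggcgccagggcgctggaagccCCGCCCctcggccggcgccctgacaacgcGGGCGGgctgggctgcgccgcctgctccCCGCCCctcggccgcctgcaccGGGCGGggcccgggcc
LPCAT1 held 3 GC boxes in 78.8% G and C, and LPCAT4 held 4 in 80.8%. Of 35116 windows of the same length, 42.6% held at least 1. Neither window held the CCAAT box (the letters CCAAT), present in 32.0% of windows on either strand, or the TATA box (TATAAA), present in 10.7%. Neither held the AP-1 site (TGACTCA, 4.20% of windows) or the E-box (CACGTG, 6.34%). These matches are descriptions of the letters only.

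The other genes of the step had smaller or less stable changes. LPCAT2, which makes phosphatidylcholine and platelet-activating factor, was at 2.31, 2.06 and 2.08 FPKM in D-2, 1.33, 1.06 and 1.37 in D-3 and 0.70, 0.78 and 1.72 in FIT. Its rise over FIT of 1.18 ± 0.34 (SE, adjusted p = 0.0367) was called only without FIT replicate 3, where it was 1.65, with adjusted p up to 0.112 without any 1 of the other 5. D-3 was lower than D-2 by -1.03 ± 0.16 (SE, adjusted p = 0.00425), not called without D-2 replicate 1 or D-3 replicate 2. LPCAT2 overlaps CAPNS2 on the same strand. MBOAT7, which places arachidonic acid on phosphatidylinositol, was at 24.4, 24.2 and 26.9 FPKM in D-2 and 14.4, 9.76 and 17.4 in FIT, and its change was 1.02 ± 0.18 (adjusted p = 0.00787), as low as 0.81 and under the fold limit without D-2 replicate 3 or FIT replicate 2. MBOAT1, an acyltransferase of lysophosphatidylserine and lysophosphatidylethanolamine, had 2.63, 3.36 and 3.02 FPKM in D-3 against 1.25, 0.94 and 1.78 in FIT (1.14 ± 0.28, adjusted p = 0.0468), called only without FIT replicate 3, with adjusted p up to 0.156 otherwise.

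LCAT, the plasma enzyme that esterifies cholesterol with a fatty acid from phosphatidylcholine, was highest in fresh tumor. FIT had 3.98, 2.45 and 5.40 FPKM. D-2 had 1.29, 1.12 and 1.29, D-3 had 1.55, 2.31 and 0.90, DP-3 had 1.85, 1.38 and 1.11, and IT had 1.65, 1.73 and 1.10. Every library of these 4 groups was below every FIT library, and DP-3 at day 1 was as well, at 1.98 to 2.44. The log2 fold change from FIT was -1.503 ± 0.29 in D-2 (SE, adjusted p = 0.00991), called in 6 of 6 fits with a library left out. The values for IT, DP-3 and D-3 were -1.38 ± 0.35, -1.31 ± 0.33 and -1.35 ± 0.42, with adjusted p of 0.22, 0.0513 and 0.087 in edgeR. In IT, DESeq2 gave an adjusted p of 0.00568. The spread within FIT was wide, its highest library was FIT replicate 3, and LCAT overlaps SLC12A4 on the same strand in the deposited coordinates.

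**Figure D2:**
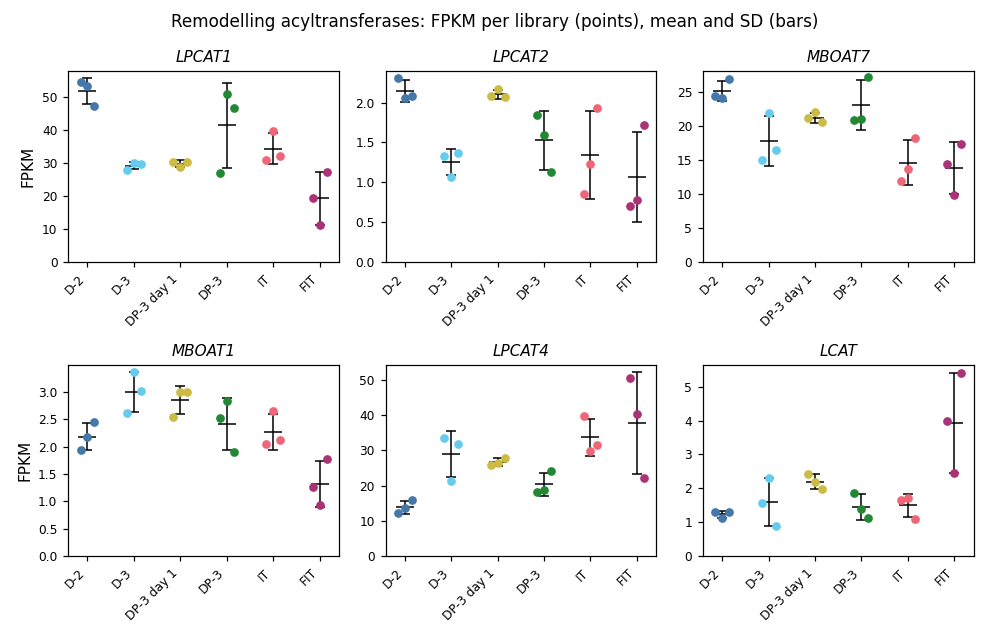
FPKM (y axis) of 6 genes listed as remodelling acyltransferases, LCAT among them, in each library (points) of the 6 groups, with the mean and SD of 3 libraries (bars). LPCAT1 has its highest mean in D-2, LPCAT4 is lowest in D-2, LCAT is highest in FIT, and the FIT libraries spread more than those of D-2 for each gene.

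Phospholipases A2 free a fatty acid, often arachidonic acid, from the middle position of the lipid. PLA2G4A, on chromosome 1 at 186828949 to 186988981 of the plus strand, encodes the calcium-dependent cytosolic enzyme. It was at 1.63, 1.84 and 1.99 FPKM in D-2, 2.30, 2.57 and 2.38 in D-3, 1.77, 1.29 and 1.38 in DP-3 at day 1, 2.21, 3.86 and 0.95 in DP-3 at day 14, 0.51, 0.55 and 0.45 in IT and 0.07, 0.07 and 0.60 in FIT. Each cultured-cell library was above each tumor-derived library, and FIT replicate 3 alone of the FIT libraries lay above IT. On the log2 scale D-2 exceeded FIT by 3.14 ± 0.84 (SE, adjusted p = 0.0285) and D-3 exceeded it by 3.33 ± 0.82 (SE, adjusted p = 0.0447). For DP-3 the value was 3.44 ± 0.93 (SE, adjusted p = 0.058). Without FIT replicate 3 these became 4.75, 4.96 and 5.09, with adjusted p of 0.000613, 0.00304 and 0.0092. Without any 1 of the other 5 libraries neither the D-2 nor the D-3 change was called, with adjusted p up to 0.0725 and 0.134. In IT the value was 1.06 ± 0.86 (adjusted p = 0.671), and 2.77 without FIT replicate 3 (adjusted p = 0.172). The part played by the lower depth and the muscle transcripts of FIT replicate 3 was not tested.

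The window before the PLA2G4A start is shown beside those above because this gene had the largest change from FIT of the members called in D-2 and in D-3. It covers the same 250 bases before the RefSeq start, in GRCh38.p14 on the plus strand.
PLA2G4A, chr1:186828699-186828948: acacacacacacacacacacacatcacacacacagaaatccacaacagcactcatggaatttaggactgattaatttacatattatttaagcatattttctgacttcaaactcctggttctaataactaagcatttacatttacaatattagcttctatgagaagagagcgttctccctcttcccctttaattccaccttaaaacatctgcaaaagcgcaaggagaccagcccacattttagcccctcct
It held 38.8% G and C, no GC box and none of the other 4 motifs, and it began with a run of CA repeats.

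The calcium-independent enzyme PLA2G6 separated the cultures another way. It had 0.28, 0.55 and 0.55 FPKM in D-2 and 0.57, 0.53 and 0.70 in DP-3 at day 14, but 2.33, 1.15 and 2.16 in D-3, 2.34, 2.08 and 1.899 in DP-3 at day 1, 1.67, 1.44 and 1.85 in IT and 1.57, 1.11 and 0.92 in FIT. D-2 and day-14 DP-3 lay below every library of the other 4 groups. PLA2G6 changed by 1.75 ± 0.36 in log2 for D-3 against D-2 (SE, adjusted p = 0.0106) and -1.53 ± 0.19 for DP-3 over time (SE, adjusted p = 0.00318), both called in 6 of 6 fits with a library left out. Against FIT it was -1.22 ± 0.33 in D-2 (SE, adjusted p = 0.0294), called only without FIT replicate 3, with adjusted p up to 0.0826 otherwise. In DP-3 it was -0.86 ± 0.28 (adjusted p = 0.0889). PLA2G6 overlaps MAFF on the other strand.

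Some low-expressed phospholipases were also higher in D-3 than D-2, a comparison in which 14.6% of all genes were called higher. JMJD7-PLA2G4B, a readthrough of JMJD7 into a phospholipase gene, was at 1.42, 1.43 and 1.38 FPKM in D-3 and 0.40, 0.35 and 0.67 in D-2 (1.32 ± 0.27, adjusted p = 0.0103). It overlaps JMJD7 and PLA2G4B, so its reads cannot be assigned with certainty. Its fall in D-2 against FIT, -1.04 ± 0.29 (adjusted p = 0.0331), was called only without D-2 replicate 3, with adjusted p up to 0.109. PLA2G4C, a calcium-independent relative of PLA2G4A, was at 0.55, 0.64 and 0.49 FPKM in D-3, 0.03 at most in D-2, 0.33 to 0.39 in DP-3 at day 1 and 0.04 to 0.07 at day 14. PLA2G2D, a secreted enzyme, had 55, 45 and 115 estimated counts in D-3 and 0 in the 3 D-2 libraries, at least 7.04-fold higher at a floor of 12 counts per library. PLA2G4C and PLA2G2D passed the filter only through D-3, and PLA2G4C over time in printed tissue only through day 1, and these values are given as a description. The rise of PLA2G4C over FIT in D-3, 2.80 ± 0.55 (adjusted p = 0.0225), was lost without D-3 replicate 1, D-3 replicate 3 or FIT replicate 2, with adjusted p up to 0.0803. PLB1 was at 0.26 to 0.55 FPKM in D-3 and 0.13 to 0.16 in D-2 (1.19 ± 0.34, adjusted p = 0.0337), called only without D-3 replicate 2, with adjusted p up to 0.0986. More genes reached 0.1 FPKM in D-3 (21384 to 22322) than in D-2 (17716 to 18109), and the part of this in the differences of low-expressed phospholipases was not tested. PLA2G12A, the highest of the step at group means of 2.07 to 3.72 FPKM, was called in no comparison.

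Further hydrolases act on the products and on the head groups. GPCPD1, on chromosome 20 at 5544439 to 5611006 of the minus strand, splits glycerophosphocholine into choline and glycerol-3-phosphate. It was at 1.77, 2.01 and 1.98 FPKM in D-2, 8.19, 3.63 and 7.61 in D-3, 4.47, 4.89 and 4.88 in DP-3 at day 1, 2.23, 2.11 and 1.41 in DP-3 at day 14, 6.86, 4.11 and 6.34 in IT and 6.79, 7.42 and 2.904 in FIT. D-2 and day-14 DP-3 were again below every other library. The change was 1.501 ± 0.29 for D-3 against D-2 (SE, adjusted p = 0.00872), called in 6 of 6 fits with a library left out. It was -1.05 ± 0.16 for DP-3 over time (SE, adjusted p = 0.00599), and -0.90 without DP-3 replicate 3. Against FIT it was -1.43 ± 0.34 in D-2 (SE, adjusted p = 0.0185) and -1.46 ± 0.35 in DP-3 (SE, adjusted p = 0.0451). Both of these were called only without FIT replicate 3, where they were -1.77 and -1.79, with adjusted p up to 0.0669 and 0.13 otherwise.

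PNPLA7, a lysophospholipase at low level, was at 0.09, 0.06 and 0.05 FPKM in D-2, 0.29, 0.19 and 0.27 in D-3 and 0.48, 0.35 and 0.21 in FIT, and D-2 lay below both. It passed the filter in these comparisons only through the higher group, so its calls there, -2.21 for D-2 against FIT and 1.62 for D-3 against D-2 in log2, are a description. Its relative PNPLA6 was much more abundant, at group means of 9.81 to 19.0 FPKM, without a DEG call. LYPLA2, which removes the last fatty acid of lysolipids and palmitate from proteins, was the highest of the step, at group means of 38.6 to 50.2 FPKM, and was called nowhere.

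Of the phospholipases D, PLD1 makes signalling phosphatidate from phosphatidylcholine, and PLD3 is a lysosomal family member known to act as a nuclease. PLD1, on chromosome 3 at 171600404 to 171810950 of the minus strand, was at 0.53, 0.56 and 0.66 FPKM in D-2, 2.28, 1.13 and 2.81 in D-3, 0.94, 1.46 and 1.34 in DP-3 at day 1, 0.84, 0.74 and 0.74 in DP-3 at day 14, 2.56, 1.64 and 2.83 in IT and 1.25, 0.98 and 1.04 in FIT. D-2 and day-14 DP-3 lay below FIT and IT above it. D-3 exceeded D-2 by 1.58 ± 0.32 (SE, adjusted p = 0.0101), in 6 of 6 fits with a library left out. The change from FIT was -0.75 ± 0.17 in D-2 (adjusted p = 0.0162, under 2-fold) and 1.10 ± 0.24 in IT, with an adjusted p of 0.195 in edgeR and 0.00378 in DESeq2. PLD3 had 19.5, 13.9 and 16.3 FPKM in D-3 against 6.01, 6.44 and 7.33 in D-2 (1.08 ± 0.15, adjusted p = 0.00339), and 0.98 without D-3 replicate 1, under the fold limit. In DP-3 it went from 18.6, 19.1 and 16.9 at day 1 to 9.68, 7.19 and 7.64 at day 14 (-0.88 ± 0.13, adjusted p = 0.00521). PLD2, the other classical enzyme, was at 3.06 to 3.16 FPKM in D-2 and 4.52 to 5.28 in FIT (-0.54 ± 0.13, adjusted p = 0.0201). It was also below FIT by -0.85 in DP-3 (adjusted p = 0.0352), and by -0.79 in D-3 and -0.72 in IT, where adjusted p was 0.0784 and 0.222.

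**Figure D3:**
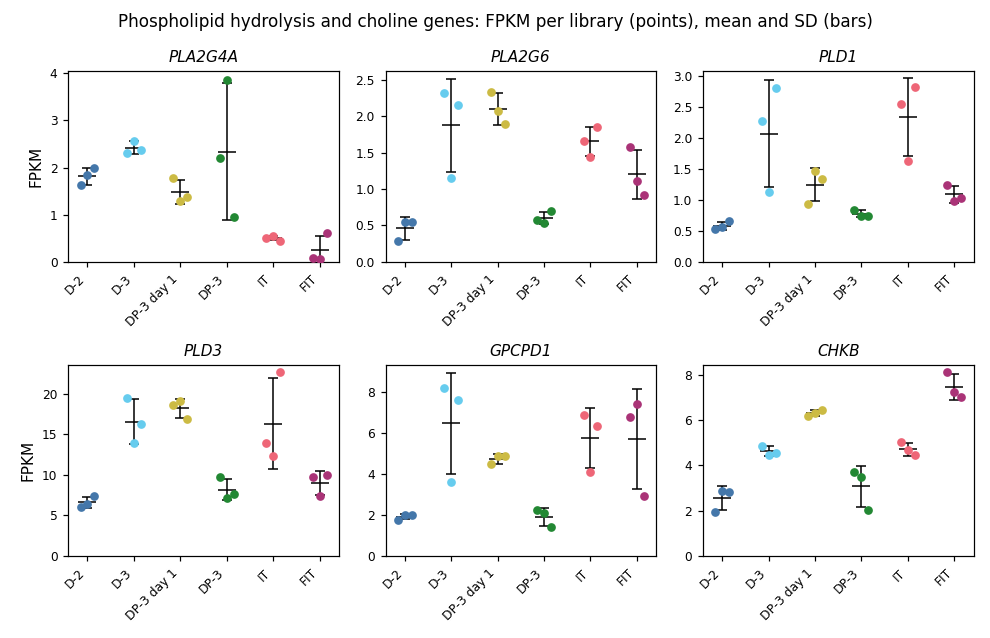
FPKM (y axis) of 5 hydrolytic genes and the kinase CHKB in each library (points) of the 6 groups, with the mean and SD of 3 libraries (bars). PLA2G4A is lowest in IT and FIT, PLA2G6, PLD1, PLD3 and GPCPD1 are higher in D-3 and DP-3 day 1 than in D-2 and DP-3, and CHKB is highest in FIT.

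The move from flat culture to Matrigel and the passage of 14 days in printed tissue share no libraries, and they were set side by side as a description. Over 73 members tested in both, Pearson's r between the log2 fold changes was -0.76, and 27 members were higher in D-3 and lower at day 14 while 26 were the reverse. The 73 include PLA2G4C, whose opposite signs were fixed by the filter, and PNPLA7, which had to be higher in D-3. An r without them was not computed. Opposite signs therefore made up 72.6% of the members, against 71.7% of all 18981 genes tested in both, where r was -0.50. The share of opposite signs among the members was close to that of all genes. PLA2G6 (1.75 and -1.53) and GPCPD1 (1.501 and -1.05) passed the DEG limits in both. So did PLA2G4C (5.08 and -2.44), which had to differ.

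**Figure D4:**
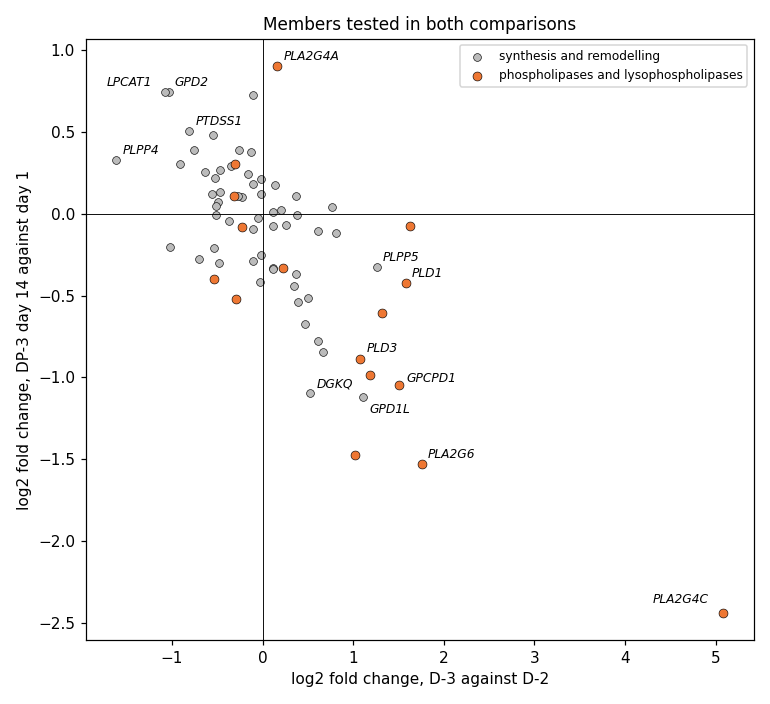
Each point is 1 of 73 members, with its log2 fold change for D-3 against D-2 (x axis) and for DP-3 at day 14 against day 1 (y axis); orange points are phospholipases and lysophospholipases. Most points lie in the upper left and lower right of the plot, with PLA2G6 and GPCPD1 at the lower right; the farthest point, PLA2G4C, passed the expression filter only through D-3 and through day 1.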

How the data were processed

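Poly(A) RNA from 18 libraries was sequenced as strand-marked paired reads. Per the labels, cutadapt 1.9, HISAT2 2.0.4 and StringTie 1.3.4d were used, with DESeq2 and edgeR named without a version. The genome build and annotation are not given in the sources used here. The authors deposited FPKM and estimated counts per gene in 1 table. How the counts were made is not given, and 35.0% of 212100 counts between 1 and 40 were multiples of 4, so they were treated as estimated counts and rounded, and a floor of 12 counts (3 read pairs) was used for genes at 0. All 96 genes were found in GENCODE 29 (GRCh38), 36 with identical ends, and coordinates are printed as deposited. Start sequences are from RefSeq, where 76 of the genes had one.

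Counts were tested with edgeR 4.0.16 (TMM scaling, quasi-likelihood, Benjamini-Hochberg adjustment over all genes tested, R 4.3.3), each comparison on its own 6 libraries. Genes needed an FPKM of at least 0.1 in 3 of them. The step and marker lists and the members were chosen with earlier results of these data known. Genes were named by rule: in each comparison the 6 DEGs with the largest change in each direction among members at 1 FPKM or more in one group, the highest member of each step, and LCAT. Alternatives were DESeq2 1.42.0, limma 3.58.1 (log2 of FPKM with a pseudocount of 0.1 or of 1), RLE scaling, no filter or a minimum of 1 FPKM, one fit of all 18 libraries, a replicate block and each library left out. The fitting was tested on simulated data. An exact permutation test of 3 against 3 libraries cannot go below p = 0.1 and was not used. The floor covers counting error only.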

Additional observations from a re-analysis of the deposited data

Results flagged for a closer look

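The members below differed between D-3 and D-2, which is also the test of the difference between their values relative to the shared FIT libraries. PLPP5, GPD2, PLD1 and PLD3 were DEGs against FIT in neither group. D-3 minus D-2, in log2, was below 0 for PLPP4 (-1.62), LPCAT1 (-1.08), GPD2 (-1.04) and LPCAT2 (-1.03). It was above 0 for PLD3 (1.08), GPD1L (1.11), PLPP5 (1.26), JMJD7-PLA2G4B (1.32), GPCPD1 (1.501), PLD1 (1.58) and PLA2G6 (1.75). All have an adjusted p below 0.05 in edgeR and their per-library values are given above.

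FPKM of PLD1 lay on different sides of FIT in different groups. Every IT library (mean 2.34 FPKM) was above every FIT library, while every D-2 and every DP-3 library was below. The log2 difference from FIT was 1.10 in IT (adjusted p = 0.195), -0.75 in D-2 (adjusted p = 0.0162) and -0.37 in DP-3 (adjusted p = 0.243) in edgeR, and the difference between these was not tested.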

How the results depend on the processing

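Counts of DEGs among the members were recomputed under each alternative. For D-2 against FIT the count of 15 was 6 with limma on log2(FPKM + 1). For D-3 against FIT the count of 6 was 2 with that setting. For DP-3 against FIT the count of 5 was 9 with no filter, 11 with DESeq2, 11 with one fit of all 18 libraries and 1 with limma on log2(FPKM + 1). For IT against FIT the count of 0 was 4 with DESeq2 and 3 with one fit of all 18 libraries. For DP-3 over time the count of 4 was 7 with limma at a pseudocount of 0.1 FPKM and 2 at a pseudocount of 1. For D-3 against D-2 the count of 15 was 8 with a minimum of 1 FPKM and 4 with limma on log2(FPKM + 1). Beyond the smaller fold changes that a pseudocount of 1 gives, the cause was not tested. With each library left out in turn, counts ranged from 8 to 17 for D-2, 1 to 6 for D-3, 0 to 11 for DP-3 and 0 to 0 for IT against FIT, 3 to 6 for DP-3 over time and 9 to 13 for D-3 against D-2. Of 37 calls of genes named by rule, 16 held in 6 of 6 such fits. Over all alternatives, none of the named calls changed direction, while 128 values lost their call and 41 gained one.

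With the replicate number as a block, the counts were 15, 5, 0, 0, 4 and 14 in the order above. Deviations from the group mean correlated between -0.04 and 0.04 for same-numbered libraries, so the numbers were not taken to pair the samples.

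On log2(FPKM + 0.1), which has no TMM scaling, the median change over all genes was 0.30 for D-3 against D-2 and -0.29 for DP-3 over time, against 0.11 and -0.06 in edgeR. The median over the members was then 0.21 and -0.33, and for D-2 against FIT it turned from 0.06 to -0.09, with all genes at -0.19. Depth was lowest in FIT replicate 3, which limits the comparisons with FIT.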

Other observations

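Genes next to the pathway were read from lists outside its annotation. The 4 acyl-CoA synthetases tested, which activate fatty acids for the acyltransferases, gave 0 DEGs in the 6 comparisons by edgeR, with an unadjusted p below 0.05 in 11 of 24 tests. ACSL1 had 5.68, 5.16 and 5.02 FPKM in D-2 against 2.64, 3.43 and 2.85 in FIT (log2 fold change 0.98 ± 0.15, adjusted p = 0.00501). Among the receptors and enzymes of lysophosphatidate signalling, LPAR3 ranged from 2.01 to 3.33 FPKM in FIT and was higher in printed tissue (5.20 to 5.32), in Matrigel (4.60 to 7.38) and in flat culture (5.59 to 5.83). The log2 fold changes in that order were 1.05 ± 0.21, 1.04 ± 0.26 and 1.19 ± 0.19, with adjusted p of 0.0303, 0.0488 and 0.00526. LPAR2 was lower in D-2 than FIT (-1.64 ± 0.24, adjusted p = 0.00409) and higher in D-3 than D-2 (1.32 ± 0.23, adjusted p = 0.00601). LPAR5 had 0.03, 0.03 and 0 FPKM at day 14 of DP-3 against 0.39, 0.53 and 0.32 at day 1. It passed the expression filter only through day 1 and had to differ, so its call (edgeR adjusted p = 0.0177) is a description. ENPP2, the enzyme that makes lysophosphatidate outside the cell, had group means of 0.71 to 1.10 FPKM and was a DEG in none.

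Of the flippases and scramblases, which move phospholipids between the leaflets of the membrane, XKR8 was higher in D-2 than FIT (1.67 ± 0.49, adjusted p = 0.0382), with 1.04, 1.20 and 0.98 FPKM against 0.54, 0.43 and 0.12. ATP10A was lower in D-3 than FIT (-1.22 ± 0.27, adjusted p = 0.0314). PLSCR4 (1.296 ± 0.25) and ATP8A1 (1.78 ± 0.28) were higher in D-3 than D-2, with edgeR adjusted p of 0.00867 and 0.00437. ATP8A1 was low, at 0.01 to 0.43 FPKM over the 18 libraries, and did not pass the expression filter in D-2 against FIT. It therefore needed D-3 libraries to pass in D-3 against D-2, and its call is given as a description.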
